A study of Mus musculus with 8 samples.

Results

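The cells described here are the Malat1-rich cells of SN4741 cultures at 39 °C: in each 39 °C library, the 10% of cells in which the largest share of the unique molecular identifiers (UMIs, 1 per captured RNA molecule) came from Malat1. They number 920 of the 9222 cells kept at 39 °C, with 96, 265, 247 and 312 cells in replicates 1 to 4, and 17557 cells were kept over all 8 libraries. A cell was kept if it had at least 3000 UMIs, 200 to 6000 genes and at most 15% of UMIs from mitochondrial genes. Each library's Malat1-rich cells were compared with its own Malat1-low cells, the 50% of cells with the lowest share (4610 cells over the 4 libraries). Malat1 was left out of all totals and gene tests, so every share and fold change of another gene is relative to the remaining RNA. The cells were thus selected on their measured Malat1 and total UMIs, whose values are given as a description and were not tested. The group is the upper end of a range of cells and not a cell type.

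Malat1 is a long noncoding RNA of several kilobases that stays in the nucleus, where it gathers at nuclear speckles, the bodies that hold splicing factors and are bathed by newly made transcripts. Its neighbour Neat1 is the scaffold of paraspeckles, which hold some RNAs back in the nucleus. Cytoplasmic mRNA, mitochondrial mRNA and nuclear RNA are all captured from a whole cell in a droplet, so the share of Malat1 can move with the amount of any of them. In GRCm38 the Malat1 gene (ENSMUSG00000092341, annotated as lincRNA) lies on the minus strand of chromosome 19 from 5795690 to 5802672.

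SN4741 is a clonal mouse line derived from embryonic midbrain and called neural precursor by its labels. It carries a temperature-sensitive SV40 large T antigen (tsA58) that is driven by the tyrosine hydroxylase promoter and has reduced activity at the higher temperature. The study's karyotyping found the line to be polyploid, with chromosome numbers that varied from cell to cell. The 4 libraries at 39 °C came from cultures in 0.5% fetal bovine serum for 48 hours and the 4 at 37 °C from cultures in 10% serum, so temperature and serum cannot be told apart, and all 8 share the line and its T antigen. Of the progenitor markers, Vim, Id1, Id3 and Notch1 were abundant in the Malat1-rich cells at 39 °C, with 40736, 5166, 7017 and 4387 UMIs. Hes1, Id2, Sox2 and Nes had 1781, 1483, 865 and 820 UMIs in these cells, and Id4, Notch2 and Sox9 had 322, 281 and 279. In the same cells Pax6, Hes5 and Fabp7 were each at 0 UMIs and Msi1 had 2, so not all of the progenitor markers were seen.

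The libraries at 39 °C held 1167 to 3557 deposited cells and 22988911 to 28879724 UMIs. Replicate 1 had the fewest cells and the deepest ones, with a median of 14868 UMIs other than Malat1 in its Malat1-rich cells against 5902 to 8913 in the other libraries. Any pair of the 8 libraries shared at most 5 cell barcodes. The study calls the libraries of each temperature cultured replicates without saying that each had a culture of its own, so p-values measure the spread between these libraries, which may be technical. No doublet caller was applied beyond the upper limit on genes, and free RNA in the droplets was not measured.

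Malat1 took a median of 10.8, 8.98, 8.84 and 8.79% of UMIs in the Malat1-rich cells of replicates 1 to 4. In the Malat1-low cells the medians were 4.48, 3.49, 3.46 and 3.27%. These shares followed a continuous distribution with no gap at the boundary: the last cell inside had 9.64, 8.02, 7.88 and 7.84% and the first cell outside 9.63, 8.02, 7.88 and 7.83%. Between 106 and 301 cells per library lay within 10% of the boundary value. The higher share came mainly from more Malat1 molecules. The median cell held 1930, 831, 903 and 617 Malat1 UMIs in the Malat1-rich groups against 718, 300, 337 and 223 in the Malat1-low groups, a ratio of 2.68 to 2.77. The highest single cells reached 22.1, 16.3, 17.5 and 15.3%. By number rather than share of molecules, 374 of the 920 cells (40.7%) were also above the 90th percentile of Malat1 UMIs in their library.

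**Figure D1:**
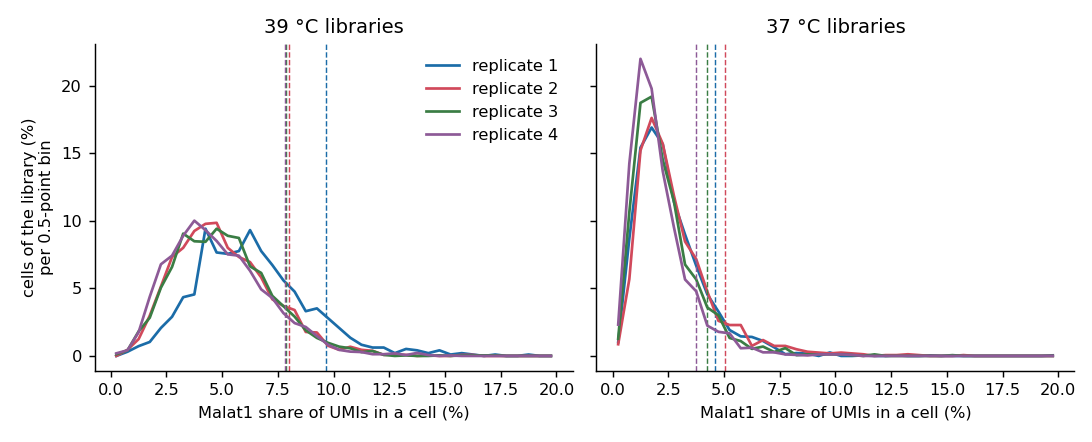
Distribution of the Malat1 share of UMIs per cell (x axis, percent) in each library, as percent of the library's kept cells per 0.5-point bin (y axis), at 39 °C (left) and 37 °C (right); dashed lines mark the lower boundary of the Malat1-rich cells. Each distribution has a single tail with no separate peak, and the boundaries at 39 °C (7.84 to 9.64%) lie above those at 37 °C (3.76 to 5.04%).

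Depth and mitochondrial share were close in the Malat1-rich and Malat1-low cells at 39 °C. UMIs other than Malat1 had medians of 14868, 8041, 8913 and 5902 in the Malat1-rich cells and of 15768, 8707, 9866 and 7137 in the Malat1-low cells. The Malat1-rich cells were thus somewhat shallower in 4 of 4 libraries, with ratios of 0.827 to 0.943, and since total UMIs enter the selection this is a description. The mitochondrial share of all UMIs was lower in the Malat1-rich cells, at 7.81, 7.59, 7.55 and 8.49% against 8.64, 8.21, 8.45 and 9.17%, where Malat1 itself swells the total. With Malat1 taken out of the total, it was 8.93, 8.36, 8.4 and 9.37% against 8.99, 8.51, 8.76 and 9.44%. That left a mean difference of -0.161 points (SD 0.140, n = 4 libraries), lower in 4 of 4 libraries, with a two-sided exact sign-flip permutation p of 0.13, the smallest that 4 libraries can give. The difference was -0.0933 without replicate 3. It was -0.0879 for the top 5% of cells, -0.0515 against all other cells and -0.0483 with a mitochondrial limit of 10%. Each of these was lower in 2 of 4 libraries only. Other settings gave larger differences, each lower in 4 of 4 libraries. The value was -0.323 with a minimum of 500 UMIs, -0.217 with 6000 and -0.263 for the top 20% of cells. It was -0.247 when cells were ranked within bins of depth and -0.278 among cells with the lowest share of cell cycle transcripts. Thinning each cell to 3000 UMIs gave -0.196 and ranking on a random part of the UMIs -0.116, each lower in 3 of 4.

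Cells with almost no mitochondrial transcripts, which a nucleus without its cytoplasm would resemble, were rare among the kept cells. Of the 920 Malat1-rich cells, 1 had a mitochondrial share under 2%. The minimum of 3000 UMIs could have removed nuclei with little RNA beforehand, and the count was not made at a lower minimum. More of the Malat1-rich than of the Malat1-low cells lay at the low end. Of the Malat1-rich cells, 112 (12.2%) were under the 5th percentile of their library's Malat1-low cells, while 53 (5.76%) were over the 95th. For depth, 87 cells (9.46%) were under the 5th percentile and 20 (2.17%) over the 95th. At 37 °C the same selection behaved differently: the ratio of depths was 0.662 to 0.697, and the mitochondrial share without Malat1 was higher in the Malat1-rich cells, at 8.17, 8.48, 8.45 and 8.11% against 7.6, 7.56, 7.92 and 7.62% (higher in 4 of 4 libraries, exact permutation p = 0.13). Whether loss of cytoplasmic RNA has a part in the Malat1 share was not tested.

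**Figure D2:**
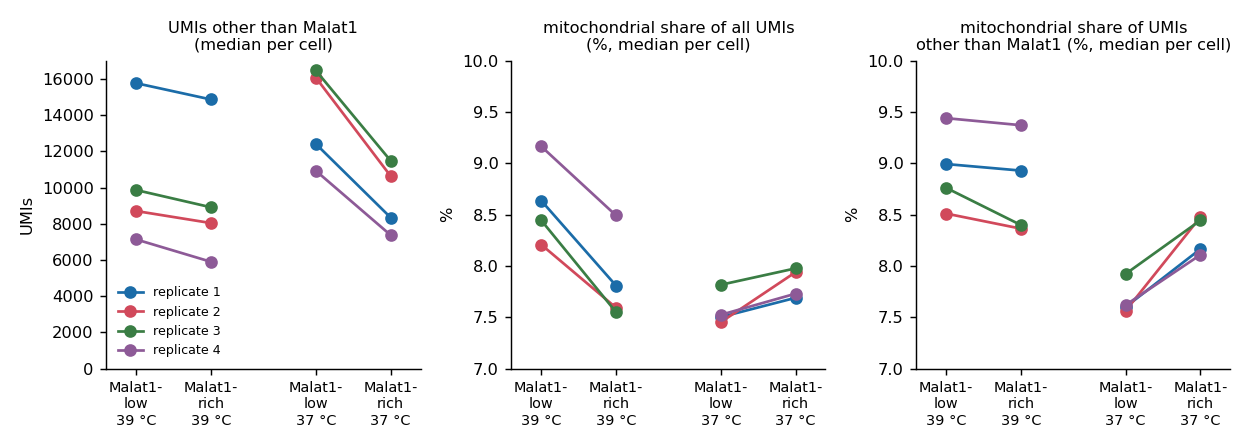
Median per cell of UMIs other than Malat1 (left), of the mitochondrial share of all UMIs (middle) and of the mitochondrial share of UMIs other than Malat1 (right; percent axes start at 7), for Malat1-low and Malat1-rich cells; each line is a library. At 39 °C the values of the right panel fell by 0.0639 to 0.363 points, while at 37 °C depth drops to 0.662 to 0.697 of its value and the mitochondrial share rises in all 4 libraries.

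To ask which other RNAs moved with Malat1, counts were summed over the Malat1-rich and the Malat1-low cells of each library and compared with edgeR's quasi-likelihood test, with the library as a block. In such a sum, fewer cells with a transcript and less transcript per cell cannot be told apart. Of 12014 genes tested, 2035 (16.9%) rose and 2296 (19.1%) fell at an adjusted p under 0.05, of which 640 and 830 by more than 0.5 on the log2 scale. Scaling by totals alone in place of TMM moved the median of all genes by 0.06 and gave 2686 higher and 1759 lower, so the balance of rises and falls depends on the scaling. Ranking the cells within 5 bins of depth by 5 bins of mitochondrial share of their library gave 2020 higher and 2248 lower, and ranking on a random part of each cell's UMIs and testing on the rest gave 1397 and 1554. Values per library below are CPM, the UMIs of a gene relative to all UMIs other than Malat1, with totals scaled by TMM.

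Among the largest rises were long noncoding RNAs. Neat1 (chromosome 19, 5824708 to 5845478) measured 2336, 2650, 2444 and 2716 CPM in the Malat1-rich cells of replicates 1 to 4 and 800, 1028, 956 and 1082 CPM in the Malat1-low cells. Every Malat1-rich value lay above every Malat1-low value, and the rise was 1.40 on the log2 scale (SE 0.0328, adjusted p = 3.14e-44). Over all 12014 genes tested, the groups did not overlap, in either direction, for 3587. Gm26917 (chromosome 17, 39843013 to 39846341), a lincRNA locus over ribosomal RNA precursor sequence, was at 362, 482, 409 and 430 against 151, 185, 174 and 176 CPM. It rose by 1.29 (SE 0.0427, adjusted p = 1.38e-35), and its assignment is uncertain because ribosomal repeats lie at several places in the genome. The mitochondrial gene mt-Nd6, the protein-coding gene on the opposite strand from the other mitochondrial mRNAs, was at 83.6, 119, 101 and 102 against 48.0, 37.8, 43.8 and 39.8 CPM and rose by 1.29 (SE 0.0786), while the other mitochondrial mRNAs fell or did not pass.

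Of the genes at 50 CPM or more that passed with 1 direction in all 4 libraries, Enpp2 rose most. It encodes autotaxin, the secreted enzyme that makes lysophosphatidic acid. Enpp2 measured 175, 195, 140 and 159 CPM in the Malat1-rich cells and 35.4, 45.3, 48.3 and 38.3 in the Malat1-low cells, a rise of 1.98 (SE 0.0708, adjusted p = 1.1e-33). Slit2, a guidance ligand of Robo receptors, stood at 478, 445, 465 and 439 against 206, 231, 249 and 243 CPM, a rise of 0.97 (SE 0.0438). Gdf6, a ligand of the bone morphogenetic protein family, rose by 1.28 from a mean of 20.7 to 51.3 CPM. Ptprd, a receptor tyrosine phosphatase, rose by 0.91, and Dsp, the desmosome protein desmoplakin, by 1.09. Adh7, an alcohol dehydrogenase that acts on retinol, rose by 0.94, with its smallest step in replicate 4 (76.4 against 54.8 CPM).

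The remaining named rises carry a doubt about counting. Hist1h2bc and Hist1h1c rose by 0.97 and 0.89, from 144 to 283 and from 162 to 301 CPM. Both belong to families of similar histone genes, and how reads were divided between relatives was not measured. Utp14b rose by 1.15 from 32.4 to 72.3 CPM and lies within Acsl3 on the same strand, so its reads may belong to either gene.

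Cell cycle genes were among the largest falls of genes at 50 CPM or more. Top2a, the topoisomerase of dividing cells, measured 28.5, 35.8, 23.5 and 21.9 CPM in the Malat1-rich cells against 82.5, 81.0, 94.1 and 97.1 in the Malat1-low cells, and fell by 1.70 (SE 0.0974, adjusted p = 5.16e-23). The groups did not overlap, as for 3587 of the 12014 genes tested. Mcm3 of the replicative helicase fell by 1.23, the replication-licensing inhibitor Gmnn by 1.16, the mitotic ubiquitin-conjugating enzyme Ube2c by 1.17 and cyclin D2 (Ccnd2) by 1.26.

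Other falls lay outside the cell cycle. Man2b1, a lysosomal mannosidase, was at 108, 110, 120 and 128 CPM in the Malat1-rich cells against 297, 258, 250 and 248 in the Malat1-low cells, a fall by 1.16 (SE 0.0568, adjusted p = 2.56e-26). The carboxylesterase gene Ces2e fell by 1.20 from 88.0 to 37.5 CPM and the adhesion gene Nectin4 by 1.44 from 70.6 to 26 CPM. Ankrd1, a mechanically responsive target of YAP, fell by 1.28, the keratin gene Krt7 by 1.12 and AU021092 by 1.21. When the 25% of cells with the most cell cycle transcripts were removed and the rest ranked again, Man2b1, Ces2e, Nectin4 and Ccnd2 changed by -1.07, -1.0, -1.22 and -1.44, whereas Top2a changed by -0.41 (adjusted p = 0.021).

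**Figure D3:**
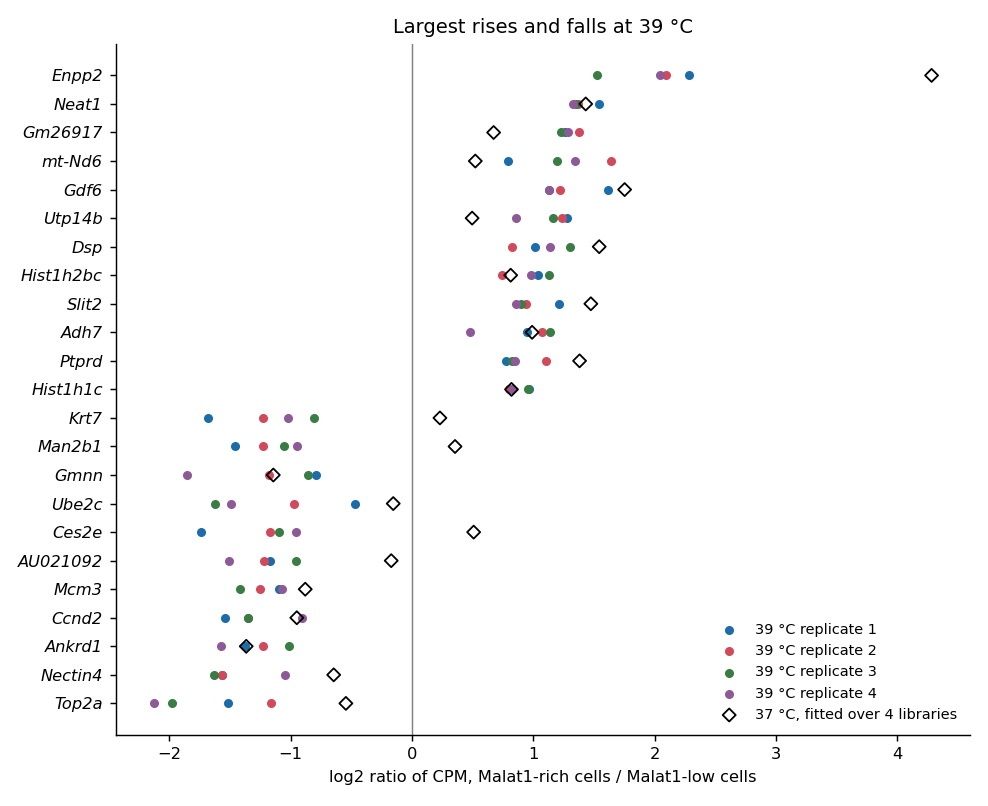
Log2 ratio of CPM between Malat1-rich and Malat1-low cells (x axis) for the 12 largest rises and 11 of the 12 largest falls at 39 °C; filled points are the 4 libraries at 39 °C and open diamonds the fitted value over 4 libraries at 37 °C. All 4 libraries lie on the same side of 0 for each gene, as the choice of genes required, while Ces2e, Man2b1 and Krt7 lie on the other side of 0 at 37 °C, Krt7 without passing the test there.

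Nuclear long noncoding RNAs and their protein partners were described through lists. All lists and their members were chosen with earlier results of these data known, so their counts are a description. Of 10 nuclear long noncoding RNAs tested besides Malat1, 5 rose and 1 fell (median change 0.29), against 16.9% rising, 19.1% falling and a median of -0.00 over all tested genes. Ftx and Lncpint rose by 0.91 and 0.90, Pvt1 by 0.49 and Kcnq1ot1 by 0.19, so Neat1 was not alone. Xist, which coats the inactive X chromosome, fell by 0.12 (adjusted p = 0.0068), a call that was lost when scaled by totals alone (adjusted p = 0.21). The summed level of the list was 0.346 to 0.395% of UMIs in the Malat1-rich cells and 0.188 to 0.216% in the Malat1-low cells, with Neat1 the larger part of it in the Malat1-rich cells. Nearly all of this difference was Neat1, so the summed level does not describe the other members. The library medians of this short list ran from 0.03 to 0.53.

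Of 16 genes of speckle and paraspeckle proteins, 8 rose and 2 fell (median 0.14, library medians 0.09 to 0.15). Son, a scaffold of speckles, was at 343, 308, 292 and 274 CPM against 267, 242, 220 and 224 and rose by 0.35. Pnn, Srrm1 and Srrm2 rose by 0.30, 0.23 and 0.18, while the splicing factor Srsf3 fell by 0.57.

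Splicing-related genes whose transcripts are known to keep introns and wait in the nucleus mostly rose. Of 24 such genes 19 rose and 3 fell, with a median of 0.30 and library medians of 0.28 to 0.34. Ccnl2 was at 116, 101, 105 and 97.8 CPM against 61.4, 63.1, 61.6 and 64.7, a rise of 0.73 (SE 0.066). Prpf38b rose by 0.60 and Rsrp1 by 0.50. Srsf7 went the other way, from 61.2 to 41.1 CPM.

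Large chromatin and ubiquitin regulators with long mRNAs rose or did not pass. Of 28 genes 23 rose and 0 fell (median 0.38, library medians 0.32 to 0.36), in a list chosen with earlier results known. The histone methyltransferase genes Kmt2d and Setd2 rose by 0.78 and 0.69. Kmt2e measured 395, 369, 389 and 390 CPM against 237, 255, 264 and 262, a rise of 0.59 (SE 0.0423, adjusted p = 9.47e-19), and the chromatin remodeller gene Chd7 rose by 0.59. The summed level was 0.396 to 0.411% of UMIs in the Malat1-rich and 0.296 to 0.311% in the Malat1-low cells.

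The short, abundant mRNAs of the cytoplasm went down by small amounts. Of 80 ribosomal protein genes 0 rose and 65 fell, with a median of -0.16 and a summed level of 17.7 to 18.8% of UMIs against 18.5 to 20.2%. Scaled by totals alone, 3 of them rose and 49 fell. Rpl41 was at 2203, 2312, 2177 and 1786 CPM in the Malat1-rich cells against 2866, 3170, 2922 and 2534, a fall by 0.44 (SE 0.0304). Of 75 nuclear-encoded subunits of the respiratory chain and ATP synthase 1 rose and 56 fell (median -0.24). Ndufb2 and Uqcrb fell by 0.58 and 0.56.

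Of the mitochondrion's own 13 mRNAs, 7 fell and 1, mt-Nd6, rose (median -0.11, library medians -0.18 to -0.06), while scaled by totals alone 4 rose and 7 fell. mt-Nd1 was at 4118, 3989, 3824 and 4390 CPM against 4595, 4779, 4771 and 5241 and fell by 0.25 (SE 0.0293). Of 15 glycolysis genes 7 fell and 1 rose (median -0.16), with the isomerase gene Gpi1 falling by 0.65. Of 31 translation factors 12 fell and 3 rose, with a median of -0.05 that became 0.01 when scaled by totals alone.

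Most genes of the cell cycle lists fell. Of 42 S phase genes 0 rose and 34 fell (median -0.87, library medians -0.88 to -0.74), and of 52 G2/M genes 2 rose and 39 fell (median -0.74, library medians -0.91 to -0.46). Mcm5 was at 5.18, 6.39, 6.17 and 6.52 CPM against 32.3, 33.2, 33.6 and 33.4, a fall by 2.43 (SE 0.155). Mki67, a marker of dividing cells, was at 13.0, 4.26, 2.06 and 2.79 against 31.1, 25.9, 38.7 and 37.5 CPM, a fall by 2.78 with replicate 1 the least changed. The summed S phase level was 0.0970 to 0.109% of UMIs against 0.145 to 0.157%.

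The contrast was examined again with fewer dividing cells. Among the 75% of cells of each library with the lowest share of cell cycle transcripts, ranked again by Malat1, 1569 genes rose and 1646 fell. The S phase median became -0.31 and the G2/M median -0.07, and 16 of 41 S phase and 7 of 49 G2/M genes still fell. These cells were chosen on transcripts of the same lists, so the smaller falls are a description. In them the medians of the detained-intron, chromatin and respiratory lists were 0.29, 0.35 and -0.26. What part dividing cells have in the other changes was not tested beyond this.

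Actin and smooth-muscle contractile genes mostly fell. Of 21 genes 16 fell and 3 rose, with a median of -0.43. Acta2, smooth-muscle actin, was at 0.648, 3.84, 0.823 and 6.98 CPM in the Malat1-rich cells and at 29.0, 54.3, 34.9 and 52.7 in the Malat1-low cells, a fall by 3.77 (SE 0.187, adjusted p = 4.36e-26) that rests on few molecules in the Malat1-rich cells. Abundant members fell less, Actb by 0.61 and the myosin light chain gene Myl6 by 0.69. Matrix genes were divided: of 18 tested 5 rose and 5 fell (27.8% each, against 16.9% and 19.1% over all tested genes). Their summed level was 0.544 to 0.584% of UMIs in the Malat1-rich cells and 0.585 to 0.610% in the Malat1-low cells, lower in 4 of 4 libraries. Lama4 and the fibronectin gene Fn1 rose by 1.51 and 0.62, and Sparc fell by 0.38.

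Genes of low growth signalling were higher or did not pass. Of 16 FoxO-linked genes of growth factor withdrawal 8 rose and 0 fell (median 0.22). Cdkn1b, an inhibitor of cyclin-dependent kinases, was at 108, 92.1, 93.8 and 90.3 CPM against 62.8, 61.2, 63.8 and 51.1 and rose by 0.68 (SE 0.0681). Txnip rose by 0.76, Pdk4 by 0.66 and Klf9 by 0.52. Of 26 immediate-early genes, whose mRNAs are made and lost quickly, 15 rose and 2 fell (median 0.20). Nr4a1 rose by 0.76, Egr3 by 0.79 and Egr1 by 0.25, and Klf2 fell by 1.25.

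Stress and metabolic lists were mixed. Of 25 p53 targets 9 rose and 4 fell (median 0.06), with Mdm2 at 1712, 1427, 1355 and 1500 CPM against 1146, 1173, 1109 and 1154, a rise of 0.38. Trp53inp1 rose by 0.39 and Pmaip1 fell by 0.59. Of 16 heat shock genes 5 rose, among them Hspb1 by 0.58 and Hspa1b by 0.52, and 4 fell, among them Dnajb1 by 0.53 and the mitochondrial co-chaperonin gene Hspe1 by 0.51. Of 20 genes of the ATF4 stress response 4 rose and 7 fell: Vegfa rose by 0.83 and the serine synthesis gene Phgdh fell by 1.41. Of 20 genes of the endoplasmic reticulum 4 rose and 6 fell, and of 24 sterol synthesis genes 2 rose and 5 fell (8.33% and 20.8%). The shares over all tested genes were 16.9% and 19.1%. Near this background were the sterol falls, the endoplasmic reticulum and ATF4 rises (20% each) and the p53 falls (16%). The heat shock falls (25%) were not far above it.

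Among the neural markers, most progenitor markers rose and immature neuron markers fell or did not pass. Of 11 progenitor markers 8 rose and 2 fell (median 0.22). Id3, an inhibitor of bHLH factors, was at 923, 821, 741 and 868 CPM against 521, 513, 515 and 529 and rose by 0.68 (SE 0.0375, adjusted p = 6.06e-24). Id4, Sox9 and Sox2 rose by 1.11, 0.99 and 0.45. Nes and Vim, the intermediate filament genes of the list, fell by 0.43 and 0.23, and the summed level, with Vim the most abundant, was 0.732 to 0.814% against 0.731 to 0.814% of UMIs. Of 10 immature neuron markers 0 rose and 5 fell (median -0.21): Tubb3 fell by 1.69 from 12.1 to 3.73 CPM and Stmn2 by 0.22, the latter without passing when scaled by totals alone (adjusted p = 0.15).

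Markers of other cell types were rare. The 13 glial markers summed to 0.00505 to 0.00551% of UMIs in the Malat1-rich cells and 0.00530 to 0.00612% in the Malat1-low cells, with 6 of them, Aqp4, S100b, Mog, Olig1, Olig2 and Sox10, at 0 in the Malat1-rich cells. The 15 immune, red cell and endothelial markers summed to 0.00198 to 0.00248% against 0.00392 to 0.00491%, lower in 4 of 4 libraries. In the Malat1-rich cells 8 of these 15 were at 0, among them C1qa, Cdh5 and Cldn5. Cd68, a lysosomal protein gene that made up most of the UMIs of the list, fell by 0.97 from 36.7 to 18.3 CPM.

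**Figure D4:**
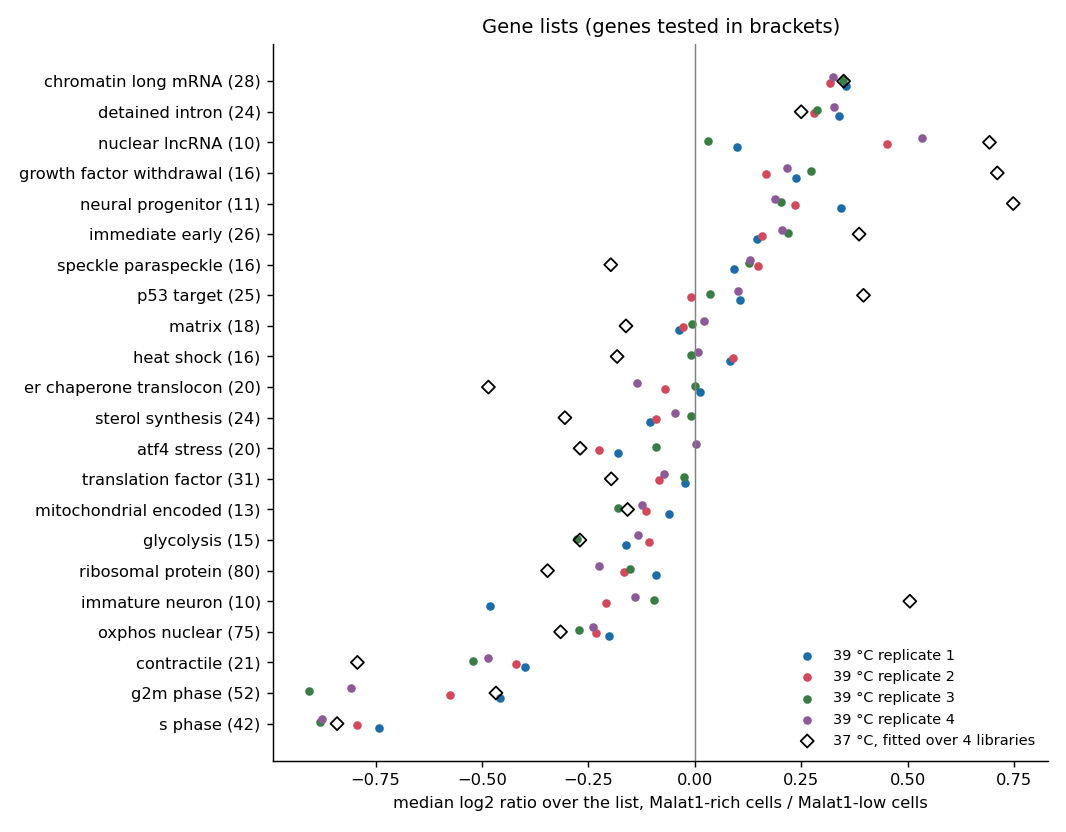
Median log2 ratio between Malat1-rich and Malat1-low cells over the genes of 22 lists (x axis; number of genes tested in brackets); filled points are the 4 libraries at 39 °C and open diamonds the fitted median at 37 °C. The chromatin and detained-intron lists lie above 0 and the S phase, G2/M, contractile and respiratory lists below 0 in all 4 libraries. Lists with 37 °C values well apart from those at 39 °C include speckle, endoplasmic reticulum, p53, growth factor withdrawal, progenitor and immature neuron.

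Along the whole range of Malat1 shares several lists changed gradually. The cells of each library were divided into 10 equal groups by Malat1 share, of which the last is the Malat1-rich group. From the first group to the last, the summed level of the nuclear long noncoding list climbed from 0.165 to 0.368% of UMIs and that of the chromatin list from 0.273 to 0.407% (means of 4 libraries). Neat1 was the larger part of the nuclear list in the last group, so its climb does not describe the other members. The ribosomal share moved from 20.1 to 18.2%, the contractile share from 1.17 to 0.819% and the S phase share from 0.185 to 0.102%. For the nuclear and chromatin lists every group was above the one before it, and for S phase the drop was steepest between the first group and the second (0.149%). Other lists did not follow such a course. The heat shock share was 0.945% in the first group and 0.938% in the last. The progenitor share went from 0.720% to 0.813% in group 7 and was 0.766% in the last.

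The same selection at 37 °C gave a partly different set of changes. There, 832 of 8335 cells were Malat1-rich, and of 12064 genes 2902 (24.1%) rose and 3087 (25.6%) fell. Over 8470 genes at 10 CPM or more at 39 °C, the fold changes at the 2 temperatures, from different libraries, had a Pearson r of 0.541 across genes, which are not independent replicates. Of 2726 genes that passed at both temperatures, 2396 (87.9%) changed in the same direction. The difference between the temperatures, tested as an interaction, was positive for 1482 of 12065 genes (12.3%) and negative for 1736 (14.4%) at an adjusted p under 0.05. Single libraries turned this balance: the counts were 1638 and 1417 without replicate 1 at 37 °C, 1567 and 1341 without replicate 2 at 37 °C, and 1484 and 1477 without replicate 1 at 39 °C.

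Of the 10 nuclear long noncoding RNAs, 5 rose at 39 °C and 7 at 37 °C, where 0 fell. Neat1 rose by 1.43 at 37 °C, and the difference of -0.05 did not pass (adjusted p = 0.49). The detained-intron and chromatin lists had medians of 0.25 and 0.35 at 37 °C, where 16 of 24 and 20 of 28 genes rose. The interaction was positive for 8 and negative for 3 of the 24 detained-intron genes, and positive for 6 and negative for 2 of the 28 chromatin genes (21.4% and 7.14%). The shares over all genes were 12.3% and 14.4%, so the chromatin list was near the background in its total. Speckle proteins differed: their median was -0.20 at 37 °C, where 11 of 16 fell, and 12 of 16 had a positive interaction with 0 negative. Pnn, for example, fell by 0.14 at 37 °C and rose by 0.30 at 39 °C.

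The biosynthetic lists separated the temperatures further. All but 2 of the 80 ribosomal protein genes fell at 37 °C (median -0.35), and 59 of 80 had a positive interaction. The endoplasmic reticulum list had a median of -0.48 at 37 °C with 18 of 20 genes falling, against -0.04 at 39 °C (0.02 when scaled by totals alone), and 16 of 20 had a positive interaction. Hspa5, its main chaperone, fell by 0.77 at 37 °C and rose by 0.26 at 39 °C, where it stood at 536, 560, 571 and 508 against 440, 474, 470 and 436 CPM.

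In the other direction, the p53 list had a median of 0.40 at 37 °C with 19 of 25 genes rising, and 15 of 25 had a negative interaction. The growth factor withdrawal list had a median of 0.71 with 14 of 16 rising, and 10 of 16 had a negative interaction. The progenitor list had a median of 0.75 at 37 °C with 9 of 11 rising and 2 falling. Its interaction was negative for 7 and positive for 1. The immature neuron list had a median of 0.50 at 37 °C against -0.21 at 39 °C. At 37 °C 3 of its 9 tested genes rose and 4 fell, and the interaction was negative for 5 and positive for 2 of 10. Enpp2 rose by 4.28 at 37 °C from a mean of 2.39 to 47.6 CPM, against the 1.98 at 39 °C from a mean of 41.8 to 167 CPM. Top2a and Mki67 fell by 0.55 and 0.32 at 37 °C, so their falls were deeper at 39 °C by 1.17 and 2.47 (interaction adjusted p = 6.58e-09 and 1.1e-10). Because the depth of the Malat1-rich cells differed more from that of the Malat1-low cells at 37 °C, depth moved together with these differences. Ranked within bins of depth and mitochondrial share, 1195 genes had a positive and 1455 a negative interaction.

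Transcript length separated the genes that rose from those that fell, a property that was looked at after the gene values were seen and is given as a description. Over 8390 protein-coding genes at 10 CPM or more, divided into 4 equal groups by transcript length, the median change was -0.14 in the shortest group (204 to 2264 bases), -0.04 and 0.03 in the groups between and 0.16 in the longest (5026 bases or more). In the shortest group 7.10% of genes rose and 41.2% fell, and in the longest 39.9% rose and 10.4% fell. The order held in each of the 4 libraries, at 37 °C (-0.22 to 0.21), with the binned ranking (-0.15 to 0.16) and in the least cycling cells (-0.14 to 0.15). It also held without the genes of the ribosomal, respiratory, S phase, G2/M, mitochondrially encoded and chromatin lists (-0.13 to 0.16). Grouping the same genes by their span on the genome gave the same order (-0.12 to 0.14), as did grouping by number of exons (-0.07 to 0.11). Which of these properties the changes follow was not tested. The 51 lincRNAs at this level had a median of 0.17.

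Position along the genome separated them too, with chromosome medians over a range close to that of the length groups. Genes on chromosome 3 had a median change of 0.17 (library values 0.148 to 0.184), with 43.6% rising and 8.43% falling, and genes on chromosome 4 a median of 0.13 (0.0955 to 0.184). Among the autosomes and X, the lowest medians were on chromosome 8 (-0.12, library values -0.125 to -0.103) and chromosome 6 (-0.10, -0.129 to -0.0810). After the median of each length group was subtracted, chromosomes 3, 4, 8 and 6 stood at 0.147, 0.145, -0.110 and -0.105. With each chromosome cut into 6 equal runs of genes, all 6 runs of chromosomes 3 and 4 were above 0, and 0 of 6 on chromosomes 8 and 6. Chromosome numbers vary between cells of this line, and the copy number in the cells sequenced was not measured here, so its part in these medians was not tested. Malat1's own chromosome 19 was near 0 (-0.01), and of 60 genes within 1 Mb of Malat1, Neat1 included, 5 rose and 19 fell (median -0.06), against 21.2% rising and 22.5% falling over all genes at 10 CPM or more.

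**Figure D5:**
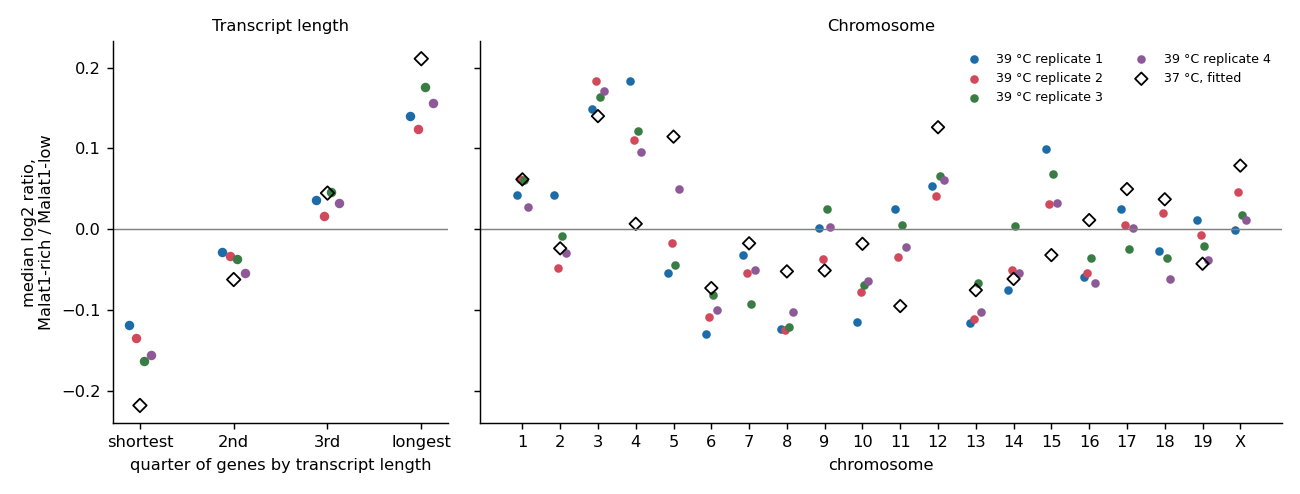
Median log2 ratio between Malat1-rich and Malat1-low cells (y axis) over 4 equal groups of protein-coding genes by transcript length (left) and over chromosomes (right), for genes at 10 CPM or more; filled points are the 4 libraries at 39 °C and open diamonds the fitted median at 37 °C. The medians climb from the shortest group (-0.14) to the longest (0.16), and chromosomes 3 and 4 lie highest in all 4 libraries at 39 °C, while chromosome 4 is near 0 (0.01) at 37 °C.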

How the data were processed

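Single cells were captured with the Chromium Single Cell 3' V3 kit. Per the labels, the authors aligned reads with Cell Ranger 3.0.1 to mm10 and deposited raw UMI counts per gene and cell, which are not normalized. Python 3.11.15 was used to filter cells, rank them by Malat1 share and sum counts per class and library. edgeR 4.0.16 (R 4.3.3; TMM, glmQLFit, glmQLFTest, library as a block) tested genes with a mean of at least 5 counts per sum, adjusted by Benjamini-Hochberg. Each standard error is that implied by the F statistic. Positions are from GENCODE M21 (30934 of 31053 identifiers matched). On simulated data the test was checked for its recovery of known changes. The 12 rises and 12 falls were the largest among genes that passed, at 50 CPM or more in the higher class and in 1 direction in all 4 libraries; up to 4 passing members per list could also be named, and further members of a list were named after their values were seen. Members and lists were chosen with earlier results of these data known. Certain genes are not reported here. Replicate numbers were not used to pair temperatures. Alternatives (scaling, filters, DESeq2 1.42.0, other cell limits and rankings, libraries left out) are given below.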

Additional observations from a re-analysis of the deposited data

Results flagged for a closer look

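Among the 12 largest rises and 11 of the 12 largest falls, 17 genes differed between temperatures in the edgeR interaction test (adjusted p from 2.83e-17 to 0.0235). As the log2 fold change at 39 °C minus that at 37 °C, the rises gave -2.32 for Enpp2, 0.61 for Gm26917, 0.75 for mt-Nd6, -0.49 for Gdf6, 0.64 for Utp14b, -0.47 for Dsp, -0.52 for Slit2 and -0.49 for Ptprd. The cell cycle genes gave -1.17 for Top2a, -0.33 for Ccnd2, -0.37 for Mcm3 and -1.03 for Ube2c. The other falls gave -0.81 for Nectin4, -1.06 for AU021092, -1.72 for Ces2e, -1.53 for Man2b1 and -1.37 for Krt7. Ces2e and Man2b1 fell at 39 °C and rose at 37 °C by 0.51 and 0.35.

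In 4 of 49 values, 1 of the 4 libraries at 39 °C lay apart from the others by Dixon's criterion, which chance meets in about 1 of 20. The log2 ratio of Nectin4 was -1.05 in replicate 4 against -1.57, -1.57 and -1.63 in the other libraries. The summed level of the mitochondrially encoded list had a log2 ratio of -0.0893 in replicate 3 against -0.0364 to -0.0415 in the others. The S phase list had -0.53 in replicate 1 against -0.585 to -0.581, and the contractile list -0.28 in replicate 4 against -0.380 to -0.363. The direction was the same in all 4 libraries for each of these values.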

How the results depend on the processing

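The counts of 2035 genes higher and 2296 lower in Malat1-rich cells became 1147 and 1316 with DESeq2, and 1021 and 1231 when each cell was thinned to 3000 UMIs, which left 10664 genes to test. Of the 4331 calls, 2109 were made in the same direction after thinning. Without the replicate block 1735 were higher and 1879 lower at 39 °C, and 5665 passed at 37 °C against 5989 with it. Leaving out each library in turn gave 1627 to 1932 higher and 1880 to 2109 lower at 39 °C, 5209 to 5394 passing at 37 °C and 2812 to 3055 interactions. The difference in mitochondrial share without Malat1 was -0.193 to -0.0933 points without a library in turn, and it turned to 0.0659 when cells were ranked within bins of mitochondrial share, a ranking that evens out this share by construction. The other settings moved these counts by less than DESeq2 did. Of 112 named genes and list members under 22 alternatives, 2352 of 2459 values kept direction and call, 107 lost the call and 0 reversed, the most (20) after thinning. Of 527 list medians recomputed, 85 moved by more than the spread between libraries. Depth limits genes of low level: those at a few CPM rest on single molecules per library in the Malat1-rich cells.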

Other observations

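Of the 330 genes that passed at both temperatures in opposite directions, 217 fell in the Malat1-rich cells at 39 °C and rose at 37 °C, and 113 did the reverse. These genes were picked after their values were seen and are given as values. Pltp, which carries phospholipids between lipoproteins, fell by 0.29 at 39 °C (1022 to 837 CPM) and rose by 0.93 at 37 °C. Igfbp7, a secreted binder of insulin-like growth factors, fell by 0.52 and rose by 0.84. Hmox1, the heme oxygenase of oxidative stress, fell by 0.59 and rose by 0.59, and Ckmt1, a mitochondrial creatine kinase, fell by 0.33 and rose by 1.45. Tcn2, a carrier of cobalamin, fell by 0.18 and rose by 1.51.

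In the reverse direction, Igf1r, the receptor of insulin-like growth factor, rose by 0.18 at 39 °C (131 to 149 CPM) and fell by 0.79 at 37 °C. Mtap rose by 0.56 and fell by 0.39. Syncrip, an RNA-binding protein gene, rose by 0.42 and fell by 0.41, and the paraspeckle protein gene Sfpq rose by 0.21 and fell by 0.46. Each of these had an interaction past an adjusted p of 0.05 in the edgeR test.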
